A study of Mus musculus with 12 samples.

Results

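Lenvatinib and H3B-6527, each given alone, were compared in xenograft tumors of the human liver cancer line Hep3B. The comparison took the 6 tumors that the labels assign to either single agent, 3 with lenvatinib and 3 with H3B-6527, out of 12 tumors in the series, and used every gene that passed a filter on low counts, 15836 of 36292. Hep3B cells had been injected under the skin of female BALB/c nu/nu mice, which lack T cells, at about 8 weeks of age. Dosing by oral gavage, once a day, began at a mean tumor volume of about 500 mm3. Lenvatinib was given at 10 mg/kg and the other agent, H3B-6527, at 300 mg/kg, and further mice received vehicle or both agents. Each group held 3 mice, and tumors were taken 8 hours after dose 4. No batch, and no pairing of mice across groups, is given in the labels. The model is limited to 1 cell line, 1 dose of each agent and 1 time point in hosts without T cells. The doses also differed between the agents, so the identity of an agent and its dose cannot be told apart. Positive log2 differences below mean a higher level with lenvatinib than with H3B-6527.

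H3B-6527 is a covalent inhibitor selective for FGFR4, the fibroblast growth factor receptor of hepatocytes. FGFR4 works with its co-receptor beta-klotho (KLB) to bind FGF19, a hormone that in normal physiology comes from the ileum and tells the liver to stop making bile acids. The receptor signals through the RAS-MAPK cascade, which switches on growth genes such as MYC and CCND1 together with its own inhibitors, the DUSP, SPRY and SPRED genes. Lenvatinib blocks several receptor tyrosine kinases, among them the VEGF receptors of blood vessels, the FGF receptors including FGFR4, PDGFRA, KIT and RET, and is used in hepatocellular carcinoma. The contrast therefore sets a drug that acts on vessels and on FGF receptors against one made to be selective for FGFR4.

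The deposited table lists human gene symbols, although the samples are labelled as mouse. Library totals ran from 23.8 to 40.4 M (mega) counts among the 6 tumors, the smallest being H3B-6527 replicate 3. Levels are given as CPM, the count per M of the library total after TMM scaling. Transcripts of albumin made up 6.06 to 8.83% of counts with H3B-6527 and 3.60 to 4.54% with lenvatinib. The H3B-6527 tumors varied more among themselves, and their biological coefficient of variation was 21.5%, compared with 10.7% for the lenvatinib tumors. On the first principal component of the 6 tumors, which held 67.8% of the variance, H3B-6527 replicates 1, 2 and 3 lay at −75.3, −43.0 and −20.3 and the lenvatinib replicates at 36.8, 53.1 and 48.6. H3B-6527 replicate 1 was thus farthest from the lenvatinib tumors and replicate 3 nearest, an order that recurs in many of the genes below. The median distance between 2 tumors (root mean square log2 difference over all genes tested) was 0.83 between the agents, 0.57 within H3B-6527 and 0.42 within lenvatinib.

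The agents left the tumors with widely different transcriptomes. In edgeR's quasi-likelihood test with Benjamini-Hochberg adjustment, 6513 of 15836 genes differed at an adjusted p under 0.05, which is 41.1% of those tested. Of these, 3265 (20.6%) were higher with lenvatinib and 3248 (20.5%) lower. Scaled by library totals alone the split was 3989 higher and 2562 lower, and the median log2 difference of all genes moved from −0.01 to 0.07. A difference of at least 2-fold was reached by 942 genes higher with lenvatinib (5.95%) and 960 lower (6.06%). The second number rested partly on H3B-6527 replicate 1, without which it was 610. For 3904 genes (24.7%) all 3 lenvatinib tumors lay above all 3 H3B-6527 tumors, and for 3828 (24.2%) they lay below. The genes with the largest differences included the Notch modulator LFNG and the growth factor binder IGFBP1 on the lenvatinib side. On the H3B-6527 side they included the bile acid enzyme CYP7A1 and the secreted protein HRG.

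**Figure D1:**
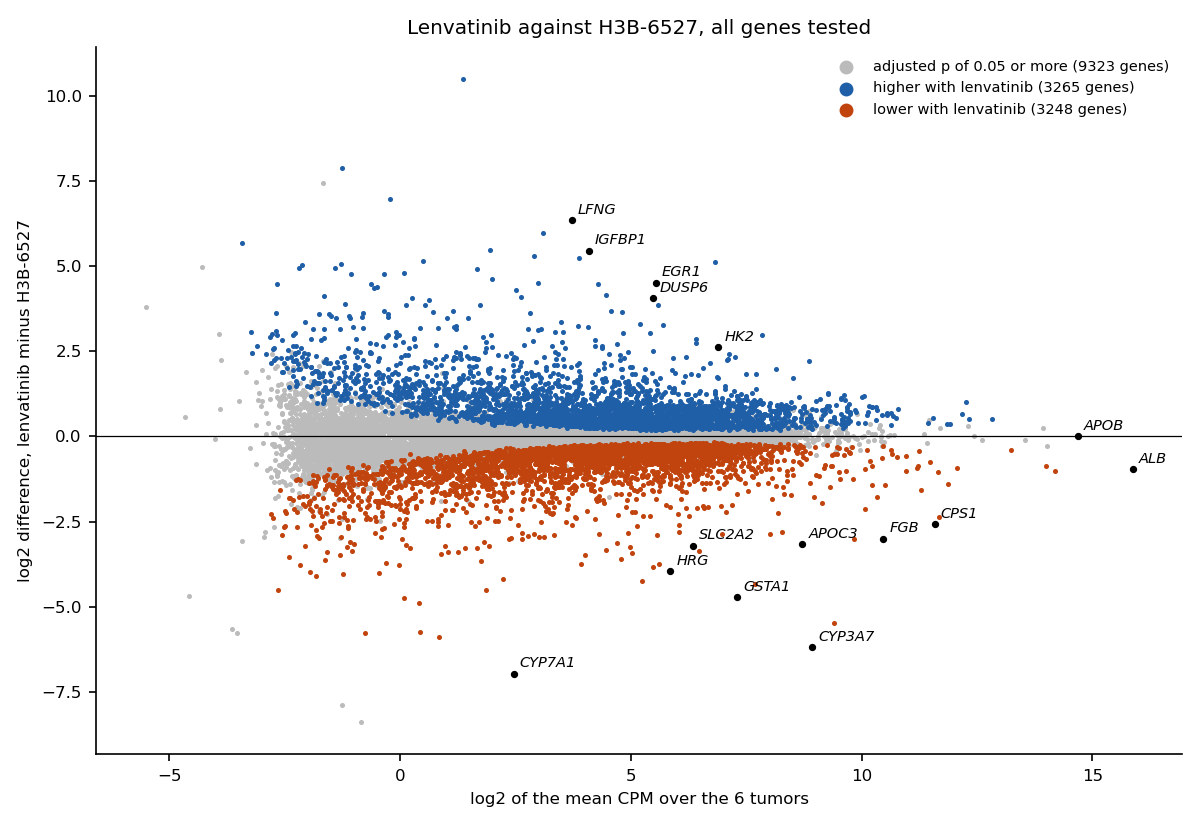
Difference between the agents against abundance for the 15836 genes tested: log2 of the mean CPM over the 6 tumors on the horizontal axis and log2 difference, lenvatinib minus H3B-6527, on the vertical axis, with 3265 genes higher (blue) and 3248 lower (orange) at an adjusted p under 0.05. CYP7A1 lies at −6.97, LFNG at 6.36, and APOB at 0.00.

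The 31 gene lists for the tumor cells were described by their medians, set beside a median of −0.01 over all genes tested. Counts of members below stand against 20.6% of all genes tested higher with lenvatinib and 20.5% lower. Lists of FGFR-MAPK output, immediate early genes, Notch genes, mitosis and ribosome assembly lay on the lenvatinib side. Lists of secreted liver proteins, acute phase proteins, drug metabolism, fatty acid oxidation, amino acid breakdown and bile acid synthesis lay on the H3B-6527 side. Cholesterol synthesis, fatty acid synthesis, the BCL2 family and WNT targets had members on both sides and medians between 0.04 and 0.18, the BCL2 median being 0.39 without a low-count filter.

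**Figure D2:**
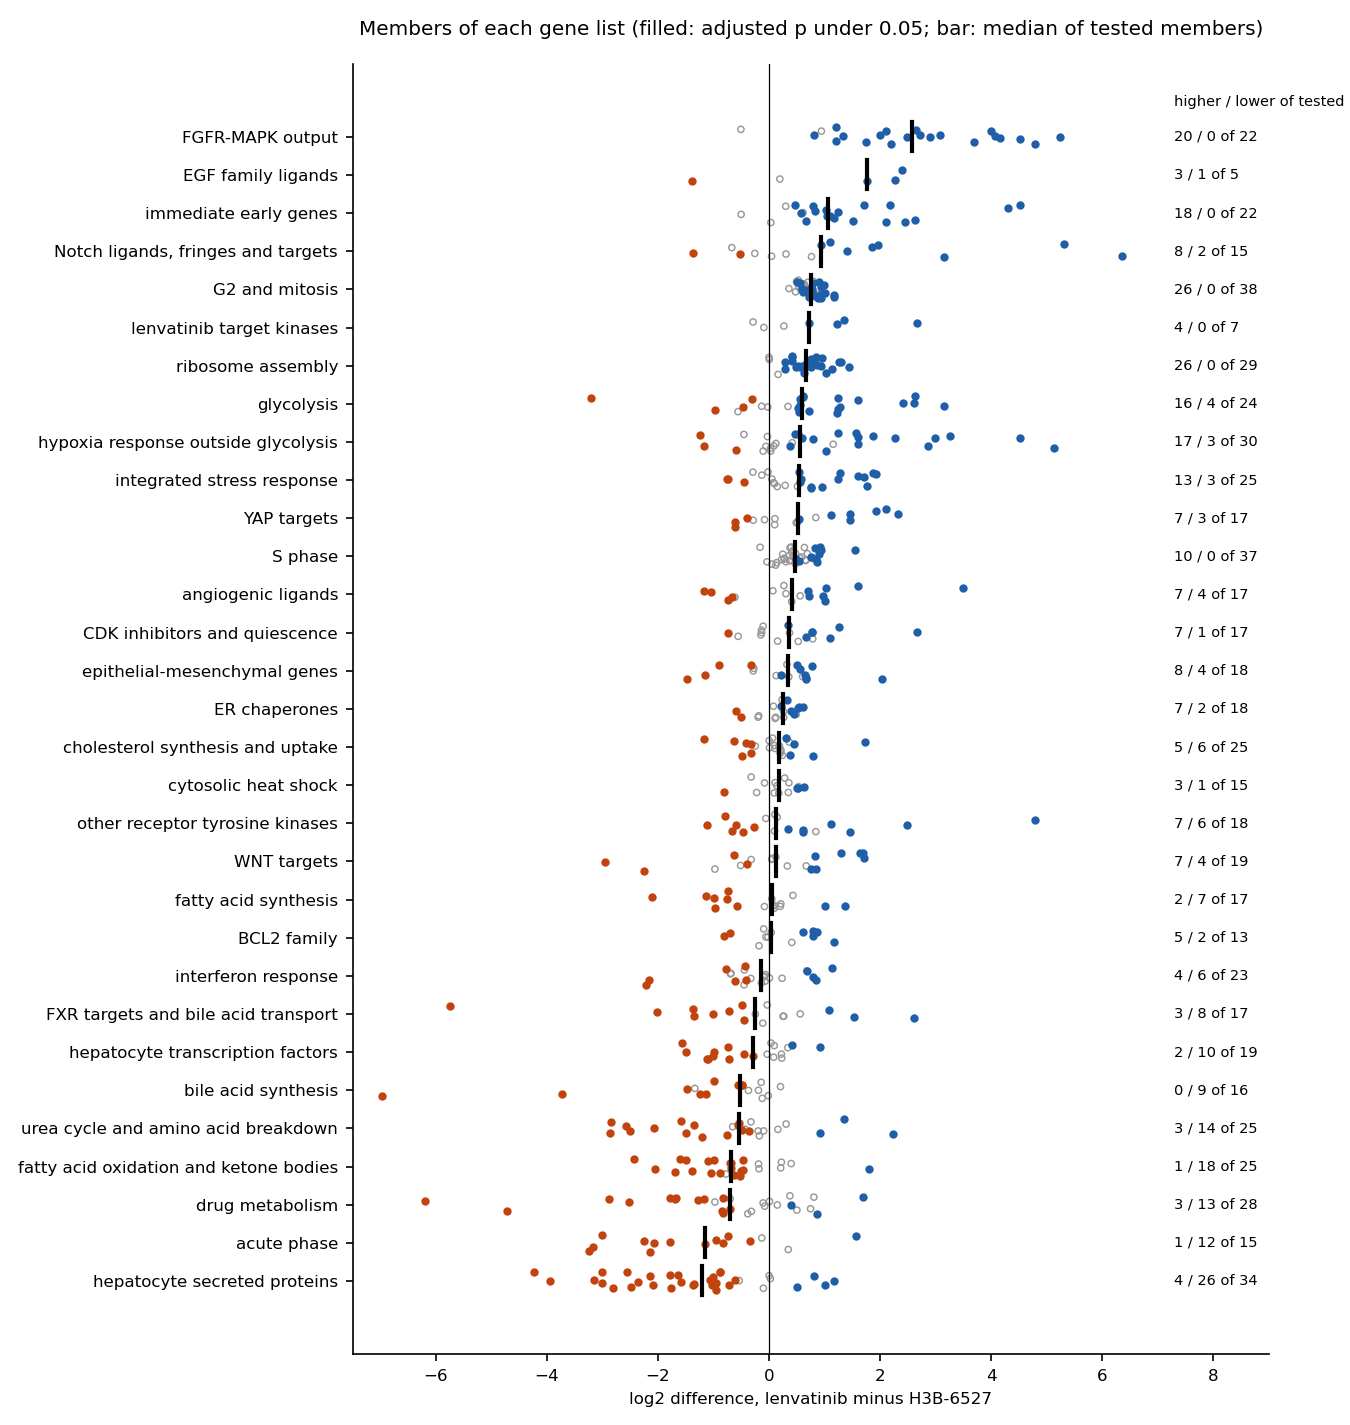
Log2 difference, lenvatinib minus H3B-6527, of every tested member of the 31 tumor lists, ordered by their medians (black bars), with filled points for an adjusted p under 0.05 and the numbers higher and lower at the right. The FGFR-MAPK list has the highest median, 2.57, and the hepatocyte secreted list the lowest, −1.21.

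Markers of host cell types were looked up before the gene groups, since bulk tumor RNA cannot tell fewer cells of a type from less RNA per cell. The host is mouse, but the markers were looked up under human symbols, and whether mouse reads were counted is not known. Low levels here therefore do not show that host cells were few. Whether reads under these symbols came from host or tumor cells was not tested. Of 19 endothelial markers, 16 were under 1 CPM in all 12 tumors and 6 had no count in any of the 6 tumors compared. Their summed level was 7.94 to 9.43 CPM with lenvatinib and 7.31 to 8.89 with H3B-6527, ranges that overlap. EGFL7 was the endothelial marker that passed (1.34 ± 0.33, adjusted p = 0.00668), and CDH5, the defining endothelial cadherin, had 3 counts over all 12 tumors. CLDN5 (1.54 ± 0.77, adjusted p = 0.127), ENG (−0.57 ± 0.26, adjusted p = 0.101) and MMRN2 (−0.77 ± 0.46, adjusted p = 0.193) did not pass. With voom ENG (0.0417) and MMRN2 (0.0425) passed as lower, and ENG also did without lenvatinib replicate 1 or H3B-6527 replicate 1. Fibroblast and pericyte markers summed to 119 to 138 CPM with lenvatinib and 63.6 to 78.6 with H3B-6527, most of it from PDGFRA and PDGFRB, and 8 of 16 were under 1 CPM in all tumors. Of 9 tested members of this list 5 were higher with lenvatinib (55.6%, against 20.6% of all genes tested), none was lower and 4 did not pass. The collagens COL3A1 (2.46 ± 0.47, 121 counts against 20) and COL1A2 (1.20 ± 0.17) were among the higher. COL1A1 had 75 counts in each group and RGS5 had 48 in each. TAGLN had 1.23, 1.64 and 1.03 CPM with lenvatinib and 3.215, 2.09 and 0.838 with H3B-6527. Adipocyte and muscle markers summed to 9.90 to 12.5 CPM with lenvatinib and 36.3 to 88.8 with H3B-6527. That difference came from the lipid droplet protein PLIN1 (−3.13 ± 0.32) and the myosin MYH4 (−4.50 ± 0.66), while 7 of the 11 markers were under 1 CPM in all tumors. Leukocyte markers summed to 178 to 186 CPM with lenvatinib and 150 to 207 with H3B-6527, with LYZ, lysozyme, higher (3.04 ± 0.36) and the lysosomal protein CD68 lower (−0.63 ± 0.16). Most of that sum came from LYZ and CD68, and 10 of the 16 leukocyte markers were under 1 CPM in all tumors. None of the 11 hepatocyte and liver tumor markers was under 1 CPM in all tumors. The part of these markers in the results below was not tested.

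Transcripts that report FGFR-MAPK signalling were far more abundant with lenvatinib. DUSP6, the phosphatase that removes the activating phosphates of ERK and is itself induced by ERK, stood at 61.97, 97.9 and 92.9 CPM in the lenvatinib tumors and at 2.70, 5.07 and 7.62 in the H3B-6527 tumors. The groups lay far apart, with the vehicle tumors (77.7, 92.9 and 71.1) among the lenvatinib values. The log2 difference was 4.07 ± 0.39 (SE, n = 3 tumors per group, adjusted p = 2.39e-05), a 16.8-fold difference. ETV5, an ETS transcription factor driven by ERK, had 31.8, 54.3 and 46.7 CPM with lenvatinib and 3.42, 3.14 and 3.81 with H3B-6527 (3.68 ± 0.29, adjusted p = 7.18e-06). Lenvatinib replicate 1 was the lowest of its group for DUSP6 and for ETV5, but still far above each H3B-6527 tumor.

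**Figure D3:**
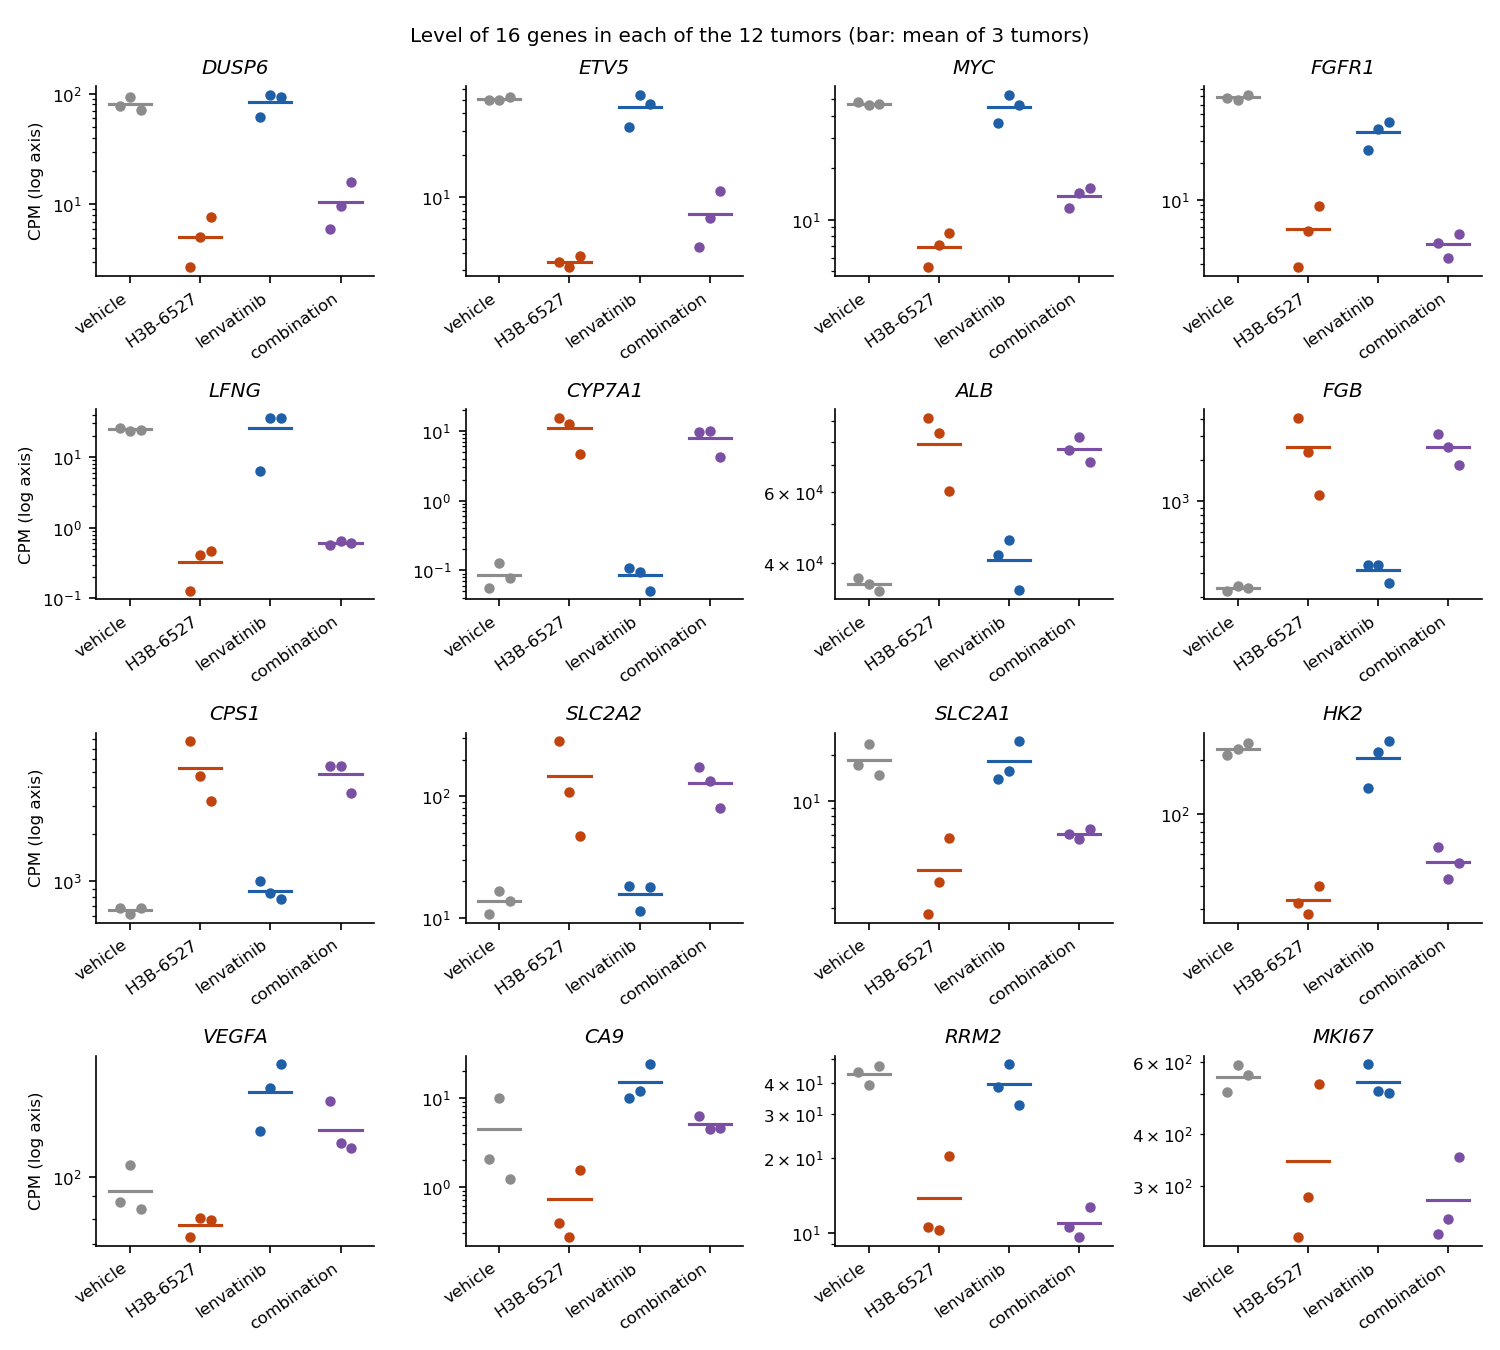
CPM (log axis) of 16 genes in each of the 12 tumors, with 3 points and a bar for the mean in each group. For DUSP6, ETV5, MYC, CYP7A1 and SLC2A2 the lenvatinib tumors sit beside the vehicle tumors and the H3B-6527 tumors beside the combination tumors, while VEGFA and CA9 have their highest values with lenvatinib.

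Of 24 genes in the FGFR-MAPK list, 22 were tested, 20 were higher with lenvatinib, none was lower, and the median difference was 2.57. The ERK phosphatase DUSP5 had 6.58, 46.4 and 32.4 CPM with lenvatinib against 0.489, 0.705 and 1.17 (5.24 ± 0.71, adjusted p = 2.53e-04), with lenvatinib replicate 1 well under the other two of its group. The feedback inhibitors SPRY1 (3.07 ± 0.26), SPRY2 (1.99 ± 0.23), SPRY4 (4.00 ± 0.58) and SPRED1 (2.66 ± 0.20) were all higher. SPRY4 rested on few reads, with 304 counts over the lenvatinib tumors and 17 over the H3B-6527 tumors. MYC, the growth regulator, had 36.5, 53.2 and 46.5 CPM with lenvatinib and 5.27, 7.13 and 8.38 with H3B-6527 (2.72 ± 0.17, adjusted p = 1.11e-06). CCND1, the cyclin that carries growth signals into the cell cycle, had 43.1, 53.9 and 31.4 CPM against 9.57, 12.7 and 16.3 (1.74 ± 0.22). Neither gene's groups overlapped. The 2 tested members that did not pass were FOSL1 (−0.51 ± 0.41, adjusted p = 0.337), a partner of JUN, and the chemokine CXCL8 (0.94 ± 0.48, adjusted p = 0.136).

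Immediate early genes, which growth factors and stress switch on within minutes without new protein, followed on the same side. Of 22 tested, 18 were higher with lenvatinib, none was lower, and the median was 1.07. FOS, a subunit of the transcription factor AP-1, had 7.32, 12.1 and 13.3 CPM with lenvatinib, 0.540, 0.461 and 0.670 with H3B-6527 and 7.07, 7.16 and 5.12 with vehicle. All 3 lenvatinib tumors were above the vehicle tumors and all 3 H3B-6527 tumors below them (4.31 ± 0.39, adjusted p = 1.30e-05). EGR1, a zinc finger factor induced by ERK, had 48.98, 122 and 95.1 CPM against 2.08, 2.63 and 7.50 (4.52 ± 0.76, adjusted p = 0.00107). The orphan nuclear receptor NR4A1 (2.62 ± 0.34), KLF4 (2.18 ± 0.45) and the AP-1 subunits JUN (1.09 ± 0.16) and JUNB (1.18 ± 0.15) were higher by smaller amounts. EGR3, NR4A3, KLF2 and IER5 did not pass (adjusted p from 0.0783 to 0.979).

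Of 11 listed kinases that lenvatinib blocks, 7 were tested and 4 had higher transcript levels with lenvatinib than with H3B-6527. The VEGF receptors KDR and FLT1 did not pass the low-count filter, with 5 and 59 counts over all 12 tumors. Levels of these receptors in mouse vessels were thus not measured here. FGFR1 had 25.7, 37.8 and 43.1 CPM with lenvatinib, 2.80, 5.58 and 8.92 with H3B-6527 and 67.9, 65.9 and 72.3 with vehicle (2.66 ± 0.32, adjusted p = 9.76e-05). Both agents' tumors lay below the vehicle tumors, those of H3B-6527 farther. FGFR2 (1.23 ± 0.17), PDGFRA (1.35 ± 0.11) and PDGFRB (0.72 ± 0.12) were the other three, and the latter pair also stands in the fibroblast and pericyte list above. FGFR4 itself had 146, 156 and 143 CPM with lenvatinib and 103, 132 and 135 with H3B-6527. The groups did not overlap, but the difference of 0.27 ± 0.10 (95% interval 0.05 to 0.48) missed the threshold with an adjusted p of 0.0510. It passed in 5 of 14 alternatives, among them without H3B-6527 replicate 2 (0.0464) or replicate 3 (0.0192). FGFR3 had −0.29 ± 0.11 (adjusted p = 0.0515) and the lymphatic VEGF receptor FLT4 −0.09 ± 0.31 (adjusted p = 0.831). In 5 of the alternatives 1 member of the list passed as lower (upper quartile scaling, DESeq2, voom, the stricter filter, and without H3B-6527 replicate 3).

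Other receptor tyrosine kinases moved both ways, 7 of 18 higher and 6 lower with lenvatinib. EPHA2, an ephrin receptor induced by RAS-MAPK signalling, had 36.1, 69.9 and 48.4 CPM against 6.22, 7.72 and 14.1 (2.48 ± 0.32, adjusted p = 1.33e-04). The insulin-like growth factor receptor IGF1R was higher by a small and even amount (0.62 ± 0.07, adjusted p = 2.94e-05). MERTK (−1.12 ± 0.20), ERBB2 (−0.80 ± 0.23) and EGFR (−0.47 ± 0.11) were lower with lenvatinib. EGFR had 351, 349 and 343 CPM with lenvatinib and 573, 466 and 411 with H3B-6527, whereas the ERBB2 values of the groups overlapped. The EGFR ligands amphiregulin (AREG, 2.40 ± 0.42) and epiregulin (EREG, 2.27 ± 0.27) went the other way and were higher with lenvatinib, as was NRG1 (1.76 ± 0.43, 48 counts against 13). Betacellulin (BTC) was lower (−1.38 ± 0.33), and HBEGF had 0.19 ± 0.34 (adjusted p = 0.672).

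Bile acid synthesis genes were higher with H3B-6527 where they differed. CYP7A1, the rate-limiting enzyme of the pathway and the classical gene that FGF19 and FGFR4 hold down in liver, had 15.4, 12.7 and 4.65 CPM with H3B-6527 but 0.110, 0.0962 and 0.0513 with lenvatinib. The lenvatinib values lay in the range of vehicle or just below it (0.0558, 0.127 and 0.0788), where a library holds only a few counts of the gene. Over the 3 tumors there were 9 counts with lenvatinib and 1178 with H3B-6527. That made CYP7A1 140-fold higher with H3B-6527 after library scaling, with a 95% interval of 73.6 to 307 that covers counting error only. The fitted log2 difference was −6.97 ± 0.64 (adjusted p = 1.75e-05), and it ran from −7.32 to −6.64 over the 14 alternatives. AKR1D1, the reductase that shapes the steroid ring of bile acids, had 151, 77.4 and 44.9 CPM with H3B-6527 and 8.88, 7.34 and 4.41 with lenvatinib (−3.73 ± 0.44, adjusted p = 1.01e-04). CYP27A1, which opens the alternative route, followed with −1.25 ± 0.18, and the ligase SLC27A5, which prepares bile acids for conjugation, with −1.48 ± 0.24. Of 16 tested genes of the list 9 were lower with lenvatinib, none was higher, and the median was −0.52, or −0.81 without lenvatinib replicate 2.

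CYP8B1, the enzyme that sets the share of cholic acid, did not pass. It had 2.83, 1.00 and 0.921 CPM with H3B-6527 and 0.493, 0.674 and 0.744 with lenvatinib, and H3B-6527 replicate 1 stood apart from the other two of its group (−1.34 ± 0.53, 95% interval −2.48 to −0.19, adjusted p = 0.0598). The call was made with DESeq2 (0.0334) and without H3B-6527 replicate 2 (0.0450) or replicate 3 (0.0285), and over all alternatives the difference ran from −1.59 to −0.60. BAAT, which conjugates bile acids (−0.12 ± 0.19, adjusted p = 0.622), and CYP7B1 of the alternative route (−0.01 ± 0.12, adjusted p = 0.939) did not pass.

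Genes around the bile acid receptor FXR differed in both directions. NR0B2 encodes SHP, the repressor that FXR and FGF19 signalling use against CYP7A1. It had 33.9, 36.9 and 36.5 CPM with lenvatinib and 3.58, 5.04 and 9.42 with H3B-6527 (2.61 ± 0.33, adjusted p = 1.32e-04). FXR itself (NR1H4) was lower with lenvatinib (−1.0 ± 0.13), and so was the FGF19 co-receptor KLB, at 61.97, 55.7 and 56.9 CPM against 329, 216 and 163 (−2.02 ± 0.20, adjusted p = 2.70e-05). ABCB11, the bile salt export pump, had 5 counts over the lenvatinib tumors and 299 over the H3B-6527 tumors, a 64.0-fold difference with a counting interval of 27.1 to 199. Most of the latter came from replicate 1 at 6.10 CPM, with 1.30 and 0.586 in replicates 2 and 3 (−5.76 ± 1.23, adjusted p = 0.00329). The uptake transporters SLCO1B1 (−1.37 ± 0.36) and SLC10A1 (−0.71 ± 0.24) were lower with lenvatinib, whereas the basolateral exporter subunit SLC51B was higher (1.52 ± 0.40). FGF19 itself had 2.55, 3.30 and 2.49 CPM with lenvatinib and 0.695, 2.19 and 2.89 with H3B-6527, groups that overlapped (0.56 ± 0.39, 95% interval −0.28 to 1.40, adjusted p = 0.267). In all, 8 of 17 tested members of this list were lower (47.1%) and 3 higher (17.6%, against 20.6% of all genes tested), with 5 higher under library totals.

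Proteins that hepatocytes secrete were lower with lenvatinib than with H3B-6527 for 26 of 34 tested genes and higher for 4, with a median of −1.21. Fibrinogen beta chain (FGB) had 339, 343 and 254 CPM with lenvatinib and 4105, 2298 and 1109 with H3B-6527. The H3B-6527 tumors differed widely among themselves, and even the lowest was far above every lenvatinib tumor (−3.00 ± 0.38, adjusted p = 1.26e-04). The heparin-binding plasma protein HRG had 7.70, 7.28 and 6.03 CPM against 156, 107 and 61.6 (−3.95 ± 0.30, adjusted p = 5.82e-06). The fetuin FETUB (−4.23 ± 0.47), the triglyceride regulator apolipoprotein C-III (APOC3, −3.16 ± 0.40), kininogen (KNG1, −3.00 ± 0.26) and the heme carrier hemopexin (HPX, −2.81 ± 0.25) differed in the same direction. Albumin (ALB), the main plasma protein, had 41950, 45550 and 34320 CPM against 91850, 84390 and 60490, a difference of −0.96 ± 0.17 (adjusted p = 7.88e-04). Alpha-fetoprotein (AFP), made by fetal liver and liver tumors, differed by −0.88 ± 0.20 (adjusted p = 0.00398).

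The secreted proteins did not move as a block. APOB, the scaffold of VLDL particles, had 26880, 26830 and 24900 CPM with lenvatinib and 26790, 25010 and 26760 with H3B-6527 (0.00 ± 0.11, 95% interval −0.25 to 0.25, adjusted p = 0.997). Prothrombin (F2, 0.02 ± 0.09, 95% interval −0.17 to 0.22) and alpha-1-antitrypsin (SERPINA1, −0.10 ± 0.12, 95% interval −0.37 to 0.17) did not pass either. Of the 4 members that were higher with lenvatinib, ITIH2, a heavy chain that binds hyaluronan, had 1423, 1484 and 1338 CPM against 376, 701 and 819 (1.16 ± 0.25, adjusted p = 0.00301). APOA2, an HDL protein, had 6792, 6695 and 6281 CPM against 1709, 4811 and 3367 (1.00 ± 0.26, adjusted p = 0.0101). The copper carrier CP (0.81 ± 0.16) and the fetuin AHSG (0.50 ± 0.15) were the other two, and 2 of the 4 passed in a fit of the 6 tumors alone. FETUB and AHSG, both fetuins, thus differed in opposite directions.

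Acute phase proteins, which the liver makes more of in inflammation, gave 12 of 15 lower with lenvatinib and 1 higher, with a median of −1.15. The 1 higher call was lost without lenvatinib replicate 2, with the stricter filter and in a fit of the 6 tumors alone. Haptoglobin (HP), which binds free hemoglobin, had 5.51, 5.90 and 6.72 CPM with lenvatinib and 105, 43.2 and 23.4 with H3B-6527 (−3.25 ± 0.56, adjusted p = 0.00119). The complement protein C3, listed among the secreted proteins, differed by −2.37 ± 0.38, and the complement protease C1S by −4.33 ± 0.52 (adjusted p = 1.32e-04). Both had their highest level in H3B-6527 replicate 1. STAT3, the factor downstream of interleukin-6, had −0.13 ± 0.08 (adjusted p = 0.212), and the interleukin-6 receptor IL6R was lower (−1.15 ± 0.20).

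Of the hepatocyte transcription factors, 10 of 19 were lower with lenvatinib and 2 higher, with a median of −0.29. The xenobiotic receptor CAR (NR1I3, −1.57 ± 0.34), ONECUT1 (−1.12 ± 0.11), the fatty acid sensor PPARA (−0.99 ± 0.19) and CEBPA (−0.73 ± 0.15) were among the lower. HNF4A, a master regulator of hepatocyte identity, differed by −0.29 ± 0.09 (adjusted p = 0.0208), from 382, 407 and 357 CPM with lenvatinib to 502, 486 and 418 with H3B-6527. The pioneer factor FOXA1 (0.03 ± 0.16, adjusted p = 0.886) did not pass. ONECUT2, a relative of ONECUT1, was higher with lenvatinib (0.92 ± 0.13, adjusted p = 1.67e-04), as was FOXA2 (0.42 ± 0.14, adjusted p = 0.0269), and 1 of these 2 calls was lost without lenvatinib replicate 3.

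Drug-metabolizing enzymes gave 13 of 28 lower with lenvatinib and 3 higher, with a median of −0.70. That median was −0.26 without H3B-6527 replicate 1 and −0.39 with voom. CYP3A7, the fetal form of the CYP3A family, had 14.6, 10.8 and 13.98 CPM with lenvatinib and 1913, 782 and 177 with H3B-6527 (−6.19 ± 0.79, adjusted p = 2.07e-04). Within H3B-6527 the level was highest in replicate 1 and lowest in replicate 3. The table also lists a read-through transcript that shares its exons, so how reads were divided between them is uncertain. The same holds for the glutathione transferase GSTA1 (−4.71 ± 0.69) and its close paralogs, and for the alcohol dehydrogenase ADH1A (−2.88 ± 0.27). CYP2B6, a target of CAR, was higher with lenvatinib, at 9.23, 10.8 and 10.3 CPM against 1.11, 2.77 and 5.95 (1.68 ± 0.42, adjusted p = 0.00834), while CAR itself was lower. CYP2B6 also has a near-identical pseudogene that could share its reads.

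Nitrogen metabolism also separated the agents. CPS1, which makes the carbamoyl phosphate that starts the urea cycle, had 1002, 843 and 779 CPM with lenvatinib and 7802, 4688 and 3243 with H3B-6527 (−2.58 ± 0.28, adjusted p = 4.19e-05). NAGS, whose product activates CPS1, differed by −2.85 ± 0.33, the urea cycle enzymes ASS1 and OTC by −1.50 ± 0.26 and −1.35 ± 0.40, and BHMT, which remethylates homocysteine, by −2.86 ± 0.48. ARG1, the last enzyme of the cycle, went the other way, at 64.2, 57.7 and 60.98 CPM with lenvatinib, 40.7, 47.2 and 39.1 with vehicle and 31.00, 22.98 and 17.3 with H3B-6527 (1.35 ± 0.23, adjusted p = 7.06e-04). HAL, which breaks down histidine, had 660.3, 769.5 and 859.5 CPM against 79.6, 196 and 213 (2.23 ± 0.31, adjusted p = 2.42e-04). Neither ARG1 nor HAL had overlapping groups. Together 14 of 25 tested genes were lower and 3 higher, with a median of −0.54.

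Fatty acid oxidation had 18 of 25 genes lower with lenvatinib and 1 higher, with a median of −0.69. CPT1A, which brings fatty acids into mitochondria, had 42.1, 35.3 and 41.7 CPM with lenvatinib and 305, 127 and 63.6 with H3B-6527 (−2.06 ± 0.47, adjusted p = 0.00562). The peroxisomal enzyme EHHADH (−1.60 ± 0.18) and the medium-chain dehydrogenase ACADM (−0.70 ± 0.12) went with it. PDK4, which holds pyruvate back from oxidation, was the exception with 2.47, 3.94 and 5.72 CPM against 1.90, 0.650 and 0.838 (1.81 ± 0.39, adjusted p = 0.00330). In fatty acid synthesis, 7 of 17 were lower and 2 higher. DGAT2, which forms triglycerides (−2.12 ± 0.22), and the glucose-responsive factor MLXIPL (−0.97 ± 0.13) were lower, the elongase ELOVL6 (1.36 ± 0.19) was higher, and FASN, the fatty acid synthase, had 0.07 ± 0.13 (95% interval −0.22 to 0.36). Without H3B-6527 replicate 3 the number higher was 4. In cholesterol synthesis and uptake, 5 of 25 were higher (20%) and 6 lower (24%), near the 20.6% and 20.5% of all genes tested. FDFT1, which makes squalene, had 137, 168 and 139.5 CPM with lenvatinib and 79.9, 84.4 and 94.3 with H3B-6527 (0.78 ± 0.11, adjusted p = 1.56e-04), and the sterol reductase TM7SF2 was lower (−1.17 ± 0.20). The number higher was 3 without lenvatinib replicate 2 or H3B-6527 replicate 2.

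Glucose transport and glycolysis differed in isoform. SLC2A2, the glucose transporter of hepatocytes, had 18.3, 11.3 and 17.98 CPM with lenvatinib and 283, 109 and 46.99 with H3B-6527 (−3.21 ± 0.58, adjusted p = 0.00159). SLC2A1, the transporter of proliferating and hypoxic cells, had 13.9, 15.7 and 24.5 CPM against 1.83, 2.95 and 5.74 (2.41 ± 0.35, adjusted p = 2.87e-04). The groups did not overlap for either transporter, and the differences ran in opposite directions. Hexokinase 2 (HK2), the form typical of tumors, had 139.7, 221 and 254 CPM with lenvatinib and 32.2, 28.03 and 40.1 with H3B-6527 (2.62 ± 0.22, adjusted p = 1.00e-05). ENO2 (3.15 ± 0.37), the glycolytic activator PFKFB3 (2.63 ± 0.33), PKM (1.24 ± 0.18), LDHA (0.73 ± 0.14) and the mitochondrial gatekeeper PDK1 (1.59 ± 0.30) were also higher. The liver pyruvate kinase PKLR had −0.13 ± 0.13 (95% interval −0.42 to 0.16, adjusted p = 0.448). In all, 16 of 24 genes were higher and 4 lower, with a median of 0.58. The number lower was 2 under library totals and in 4 of the 6 fits that each left out a tumor, those without a lenvatinib replicate or without H3B-6527 replicate 1.

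**Figure D4:**
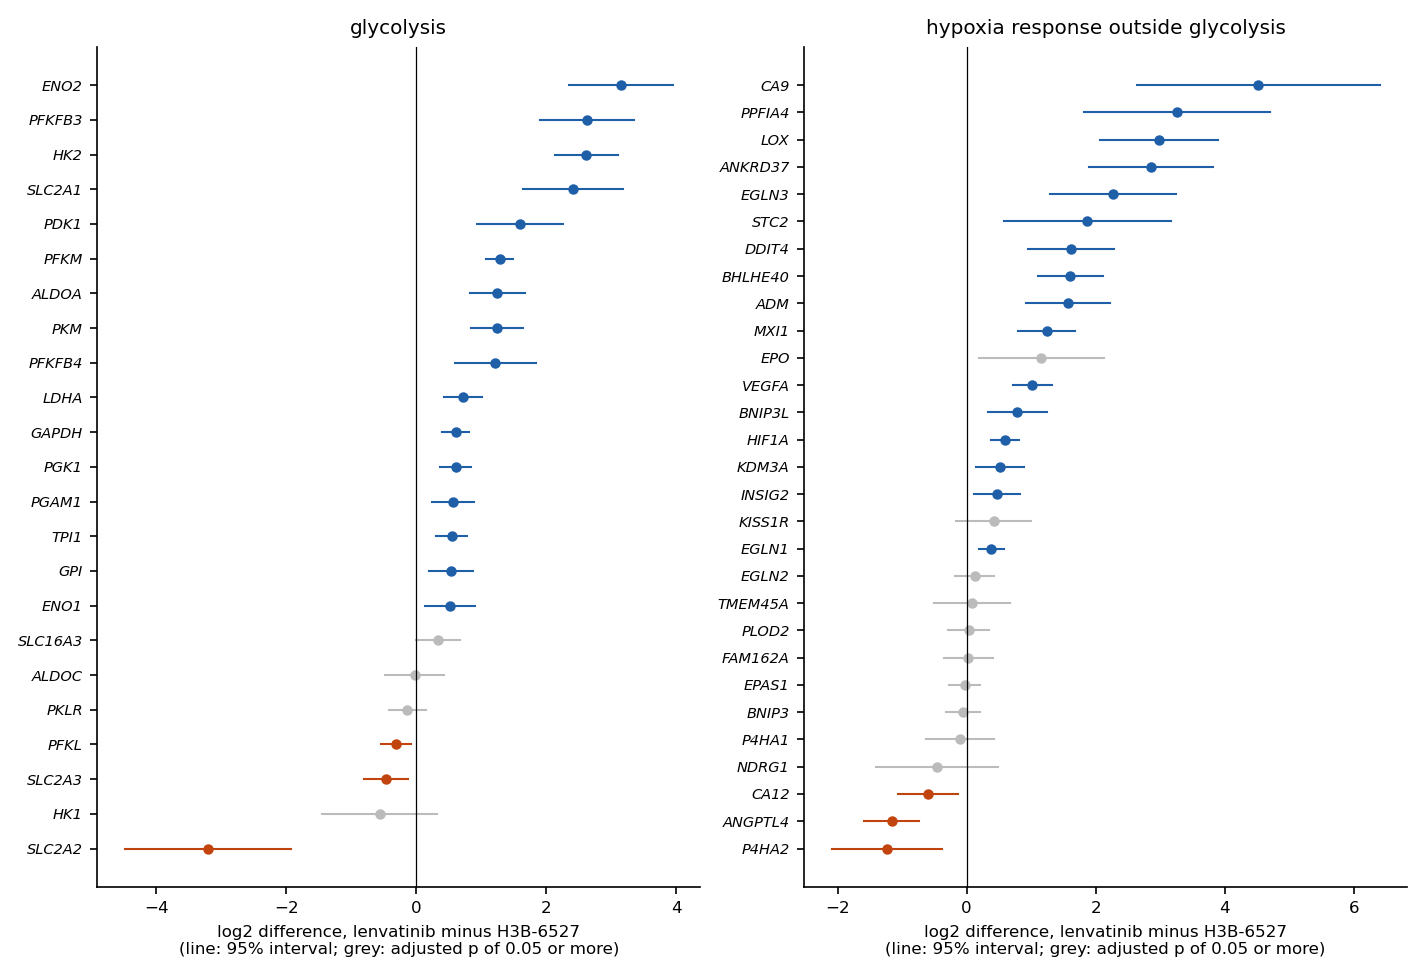
Log2 difference, lenvatinib minus H3B-6527, with 95% intervals (lines) for genes of the glycolysis list and of the hypoxia list outside glycolysis, in grey where the adjusted p was 0.05 or more. SLC2A2 at −3.21 lies opposite SLC2A1 at 2.41, and NDRG1, a common hypoxia marker, lies at −0.45 among the grey points.

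Genes induced by low oxygen were mostly higher with lenvatinib, 17 of 30 against 3 lower, with a median of 0.56. CA9, a carbonic anhydrase and classical hypoxia marker, had 9.95, 11.8 and 23.7 CPM with lenvatinib, 0.386, 0.271 and 1.55 with H3B-6527 and 2.07, 9.88 and 1.24 with vehicle (4.52 ± 0.85, adjusted p = 0.00188). Vehicle replicate 2 lay near the lenvatinib tumors and the other vehicle tumors near H3B-6527 replicate 3. The oxygen-sensing hydroxylase EGLN3 (2.26 ± 0.45), the collagen crosslinker LOX (2.98 ± 0.43) and ANKRD37 (2.85 ± 0.45) were higher as well. LOX averaged 1.735 CPM with lenvatinib and 2.766 with vehicle. The list was not uniform. NDRG1 had 129.9, 132 and 189 CPM with lenvatinib and 258, 192 and 167 with H3B-6527, above the vehicle tumors (20.8, 66.4 and 16.2) with both agents (−0.45 ± 0.43, 95% interval −1.40 to 0.49, adjusted p = 0.424). ANGPTL4, an inhibitor of lipoprotein lipase, was lower with lenvatinib (−1.16 ± 0.20, adjusted p = 5.64e-04), and BNIP3, a mitophagy receptor, had −0.06 ± 0.12 (95% interval −0.32 to 0.21). EPO had 1.16 ± 0.45 (adjusted p = 0.0547). Of the 3 calls of lower members, 1 was left without lenvatinib replicate 2 or H3B-6527 replicate 1.

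VEGFA, the main ligand of the VEGF receptors that lenvatinib blocks, had 128, 160.5 and 182 CPM with lenvatinib, 72.5, 80.3 and 79.2 with H3B-6527 and 87.6, 106 and 84.2 with vehicle. Every lenvatinib tumor was above every other single-agent and vehicle tumor (1.02 ± 0.14 against H3B-6527, adjusted p = 1.25e-04), and the combination tumors averaged 129. Placental growth factor (PGF, 0.73 ± 0.20), PDGFA (1.01 ± 0.17), the ephrin EFNB2 (1.60 ± 0.22) and HGF, the ligand of MET (3.49 ± 0.36), were also higher with lenvatinib than with H3B-6527. Unlike VEGFA, EFNB2 was below vehicle (means of 3.01 CPM with lenvatinib and 4.755 with vehicle) and HGF was level with it (3.69 and 3.68). VEGFB had 0.07 ± 0.10 (95% interval −0.14 to 0.28) and the vessel-destabilizing ANGPT2 0.27 ± 0.24 (95% interval −0.25 to 0.78). Among 17 angiogenic ligands 7 were higher (41.2%) and 4 lower (23.5%, against 20.5% of all genes tested). The number lower fell to 2 without H3B-6527 replicate 2 or any 1 lenvatinib tumor.

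Cell cycle genes were higher with lenvatinib where they differed, and 1 tumor had much weight in how many. RRM2, the ribonucleotide reductase subunit of S phase, had 38.5, 47.6 and 32.6 CPM with lenvatinib and 10.5, 10.3 and 20.4 with H3B-6527 (1.54 ± 0.24, adjusted p = 4.55e-04). The mitotic checkpoint kinase BUB1B had 179.5, 180.3 and 158 CPM against 80.5, 83.2 and 128 (0.83 ± 0.17, adjusted p = 0.00240), and securin (PTTG1) 51.1, 49.7 and 45.6 against 14.2, 22.4 and 28.4 (1.18 ± 0.21). In all 3 genes H3B-6527 replicate 3 lay nearest to the lenvatinib tumors. MKI67, the proliferation antigen, had 591, 510.1 and 503 CPM with lenvatinib and 226, 283 and 529 with H3B-6527, where replicate 3 lay among the lenvatinib values. Its difference of 0.63 ± 0.26 (95% interval 0.06 to 1.20) did not pass (adjusted p = 0.0738), but did with DESeq2 (0.0293), with voom (0.0138) and without H3B-6527 replicate 3 (1.07, 3.02e-04). Of 38 genes of G2 and mitosis, 26 were higher and none lower, with a median of 0.75. That number was 38 without H3B-6527 replicate 3, 14 without H3B-6527 replicate 1 or 2 or lenvatinib replicate 1, and 17 without lenvatinib replicate 2. Of 37 S phase genes, 10 were higher (27%, against 20.6% of all genes tested) and none lower, with a median of 0.47. There the number was 33 without H3B-6527 replicate 3, 4 without H3B-6527 replicate 1 or 2 or lenvatinib replicate 1, and 5 without lenvatinib replicate 2. The S phase number was also 21 with voom and 5 without a low-count filter, where the G2 and mitosis number was 16. H3B-6527 replicate 3 was also the smallest library and the one with the lowest albumin share of its group, and the part of either in these counts was not tested.

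Genes that restrain the cell cycle were also higher in part, 7 of 17 against 1 lower. The CDK inhibitor CDKN2B had 7.07, 23.6 and 19.98 CPM with lenvatinib and 2.34, 2.49 and 3.23 with H3B-6527 (2.67 ± 0.36, adjusted p = 1.79e-04), and CDKN2A differed by 1.10 ± 0.29. An antisense transcript overlaps this locus, and whether the counting used strand was not given in the sources used here. CDKN2B lay below vehicle with both agents, with a mean of 16.9 CPM with lenvatinib against 26.1 with vehicle. CDKN1C was lower (−0.73 ± 0.15), and CDKN1A, p21, had 0.79 ± 0.34 (adjusted p = 0.0831). The number higher was 4 without H3B-6527 replicate 2, and the number lower was 2 without H3B-6527 replicate 2 or 3, under upper quartile scaling, with DESeq2 and with the stricter filter. Ribosome assembly, which MYC drives, was higher for 26 of 29 genes with none lower, and the median was 0.67. Against vehicle the list medians were −0.33 with lenvatinib and −1.02 with H3B-6527. DDX21 and BYSL lay below vehicle with both agents, with means of 84.6 and 14.5 CPM with lenvatinib against 130 and 18.6 with vehicle. The nucleolar helicase DDX21 had 71.7, 95.5 and 86.5 CPM with lenvatinib and 29.8, 33.4 and 40.5 with H3B-6527 (1.29 ± 0.13, adjusted p = 1.80e-05), NOP16 differed by 1.44 ± 0.23 and BYSL by 1.13 ± 0.12. UBTF, a factor for ribosomal RNA transcription, had 0.00 ± 0.08 (95% interval −0.17 to 0.17).

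The integrated stress response, the program of the factor ATF4, had 13 of 25 genes higher with lenvatinib and 3 lower, with a median of 0.53. TRIB3, a pseudokinase, had 15.8, 29.6 and 24.7 CPM with lenvatinib and 5.61, 5.20 and 7.71 with H3B-6527 (1.93 ± 0.20, adjusted p = 3.06e-05). The cystine transporter SLC7A11 (1.77 ± 0.25) and asparagine synthetase (ASNS, 0.75 ± 0.14) were higher, and the serine enzyme PSPH was lower (−0.76 ± 0.10). ER chaperones differed less, with 7 of 18 higher and 2 lower and a median of 0.25. Calreticulin (CALR, 0.62 ± 0.16) was among the higher and HERPUD1 (−0.60 ± 0.13) among the lower, while HSPA5, the main chaperone of the ER, had 0.26 ± 0.13 (adjusted p = 0.132). The number higher was 3 without lenvatinib replicate 1 or 2 or H3B-6527 replicate 1. Cytosolic heat shock genes had 3 of 15 higher (20%, against 20.6% of all genes tested) and 1 lower (6.67%, against 20.5%). The number higher was 1 without lenvatinib replicate 2 or 3 or H3B-6527 replicate 1 and 5 without H3B-6527 replicate 3. The number lower was 3 without lenvatinib replicate 3 and 2 without H3B-6527 replicate 3. The co-chaperone DNAJA1 was lower (−0.80 ± 0.18).

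Interferon response genes had 6 of 23 lower (26.1%) and 4 higher (17.4%), near the 20.5% and 20.6% of all genes tested, so the counts do not set the list apart. IFIT1, an antiviral RNA-binding protein, had 0.931, 0.866 and 0.641 CPM with lenvatinib and 4.78, 3.50 and 2.51 with H3B-6527 (−2.16 ± 0.26, adjusted p = 6.40e-05). IFITM3, a membrane protein that restricts virus entry, went the other way (0.79 ± 0.15, adjusted p = 0.00140), and ISG15 had 0.23 ± 0.31 (adjusted p = 0.573). The number lower was 3 without lenvatinib replicate 2.

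Notch pathway genes held some of the widest differences. LFNG, the fringe enzyme that adds sugars to Notch receptors, had 6.46, 35.96 and 35.6 CPM with lenvatinib and 0.129, 0.407 and 0.461 with H3B-6527. Lenvatinib replicate 1 was well under the other two of its group, yet far above the highest H3B-6527 tumor (6.36 ± 0.69, adjusted p = 6.02e-05). HEY1, a repressor that Notch induces, had 5.34, 19.6 and 18.5 CPM against 0.309, 0.434 and 0.335 (5.31 ± 0.52, adjusted p = 2.75e-05). The ligand JAG1 (1.86 ± 0.18), the fringe MFNG (1.96 ± 0.20) and the receptor NOTCH3 (1.41 ± 0.25) were higher with lenvatinib, whereas the receptor NOTCH1 was lower, at 31.8, 17.1 and 24.1 CPM against 50.03, 66.5 and 72.7 (−1.37 ± 0.21, adjusted p = 4.15e-04). Of 15 tested genes 8 were higher and 2 lower, with a median of 0.94.

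WNT targets differed in both directions. The stem cell receptor LGR5 had 27.9, 28.5 and 38.5 CPM with lenvatinib and 8.44, 9.89 and 11.1 with H3B-6527 (1.70 ± 0.20, adjusted p = 6.85e-05), and the feedback genes NKD1 (1.71 ± 0.29), AXIN2 (0.85 ± 0.28) and DKK1 (1.63 ± 0.23) were higher too. LGR5 and DKK1 lay below vehicle with both agents, with means of 31.6 and 37.4 CPM with lenvatinib against 61.7 and 62.0 with vehicle. The ammonia transporter RHBG, a WNT target of hepatocytes around the central vein, had 2.71, 1.73 and 1.08 CPM against 17.03, 14.1 and 11.4 (−2.95 ± 0.29, adjusted p = 2.25e-05), and glutamine synthetase (GLUL) differed by −0.63 ± 0.15. Of 19 tested, 7 were higher (36.8%) and 4 lower (21.1%, against 20.5% of all genes tested). YAP targets had 7 of 17 higher, among them the matricellular proteins CYR61 (13.1, 18.2 and 19.8 CPM against 3.68, 3.77 and 4.52, 2.10 ± 0.15, adjusted p = 2.43e-06) and CTGF (1.92 ± 0.26) and the ectonucleotidase NT5E (2.33 ± 0.24). CYR61 and CTGF lay below vehicle with both agents, with means of 17.0 and 8.80 CPM with lenvatinib against 22.1 and 16.5 with vehicle. NT5E averaged 253 CPM with lenvatinib and 245 with vehicle. The 3 YAP targets called lower (17.6%, against 20.5% of all genes tested) became 1 without lenvatinib replicate 2 or 3 or H3B-6527 replicate 1.

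Epithelial and mesenchymal genes differed in both directions. Claudin 1 (CLDN1) had 181, 166 and 154 CPM with lenvatinib and 530.4, 447 and 417 with H3B-6527 (−1.47 ± 0.10, adjusted p = 2.18e-06), and E-cadherin (CDH1) 355, 339.6 and 309.9 against 1056, 671 and 501 (−1.15 ± 0.21, adjusted p = 0.00109). TGFB2, a ligand of the TGF-beta family, differed by 2.03 ± 0.28 and fibronectin (FN1) by 0.67 ± 0.25 (adjusted p = 0.0449). Of 18 tested, 8 were higher (44.4%) and 4 lower (22.2%, against 20.5% of all genes tested). The number higher was 4 without lenvatinib replicate 2 or 3 or H3B-6527 replicate 2. In the BCL2 family, BCL2L11 (BIM), a killer protein that ERK signalling holds down, had 6.55, 5.71 and 7.13 CPM with lenvatinib and 12.1, 11.3 and 10.5 with H3B-6527 (−0.80 ± 0.12, adjusted p = 1.96e-04). The survival gene BCL2L1 had 20.3, 24.99 and 21.5 CPM against 10.4, 12.3 and 14.1 (0.87 ± 0.12, adjusted p = 1.31e-04), and MCL1 differed by 0.79 ± 0.15. BBC3 (PUMA), another killer protein, was higher with lenvatinib (1.18 ± 0.32, adjusted p = 0.0113). Of 13 tested, 5 were higher (38.5%) and 2 lower (15.4%, against 20.5% of all genes tested), the 5 becoming 3 without lenvatinib replicate 3.

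Outside the lists, the widest differences had no overlap between the groups by the rule that chose them, which also asked for a mean log2 CPM of at least 1 but for no minimum in either group. ADORA2A, an adenosine receptor, had 4.49, 4.36 and 6.64 CPM with lenvatinib and no count in any H3B-6527 tumor, against 559 over the lenvatinib tumors. Against a floor of 3 counts over the group it was at least 174-fold higher. It passed in the quasi-likelihood test (adjusted p = 0.00377) and in 13 of 14 alternatives but not with voom (0.104). IGFBP1, a secreted binder of insulin-like growth factors, had 20.5, 40.9 and 38.2 CPM with lenvatinib and 0.283, 0.678 and 1.51 with H3B-6527 (5.46 ± 0.60, adjusted p = 5.52e-05). GDF15, a stress hormone, had 14.9, 52.5 and 44.5 CPM against 1.18, 1.44 and 2.64 (4.47 ± 0.44), and the chemokine receptor CCR6 16.5, 17.7 and 16.5 against 0, 0 and 1.05 (5.98 ± 0.78), with the reads of the latter group all in replicate 3. On the other side, SCN7A, a sodium channel, had 4.88, 5.20 and 7.36 CPM with lenvatinib and 122, 83.2 and 45.4 with H3B-6527 (−3.84 ± 0.36, adjusted p = 2.10e-05). ENHO, which encodes the peptide adropin (−3.65 ± 0.32), SLC13A2, a citrate carrier (−4.19 ± 0.61), and ETNK2, an ethanolamine kinase (−3.60 ± 0.48), were lower with lenvatinib too.

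The vehicle tumors give each agent's own difference, with both agents set against the same 3 tumors. Against vehicle, 7829 genes (49.4%) passed with H3B-6527. With lenvatinib 0 (0%) passed in edgeR, where the smallest adjusted p was 0.0669 and 1698 genes had an unadjusted p under 0.05, while voom called 489 and DESeq2 245. Among the 942 genes at least 2-fold higher with lenvatinib than with H3B-6527, the median log2 difference from vehicle was −0.14 with lenvatinib and −1.69 with H3B-6527. Among the 960 genes lower by as much it was 0.26 with lenvatinib and 1.65 with H3B-6527. For FGFR-MAPK output the list medians against vehicle were −0.29 with lenvatinib and −2.79 with H3B-6527, and for secreted hepatocyte proteins 0.34 and 1.62. For hypoxia genes outside glycolysis they were 0.54 with lenvatinib and −0.19 with H3B-6527. For glycolysis they were 0.28 and −0.32. In edgeR no member of any list passed with lenvatinib against vehicle.

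In a small group of genes the vehicle tumors lay between the agents with no overlap on either side, 46 of the 942 genes at least 2-fold higher with lenvatinib and 17 of the 960 lower, against 259 of all 15836. IGFBP1 was one, at 5.47, 15.2 and 4.28 CPM with vehicle, and so were FOS, HAL and ARG1 above. PFKFB3 had 4.44, 5.74 and 10.4 CPM with lenvatinib, 3.27, 4.13 and 4.31 with vehicle and 1.03, 1.06 and 1.26 with H3B-6527. ELMO1, an activator of the GTPase RAC, had 3.78, 3.05 and 4.10 CPM with lenvatinib, 2.32, 2.93 and 2.05 with vehicle and 0.514, 0.650 and 1.22 with H3B-6527. In the other direction, MAMLD1, a Notch-related coactivator, had 9.18, 6.93 and 8.87 CPM with lenvatinib, 12.1, 10.8 and 12.3 with vehicle and 40.9, 28.9 and 19.6 with H3B-6527 (−1.84 ± 0.23 between the agents, adjusted p = 9.69e-05). The folate enzyme FPGS (−0.65 ± 0.11) and the guidance cue SLIT2 (−0.70 ± 0.15) had the same order. These genes were chosen for their order, so it is given as a description without a test of its own.

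In other genes both agents' tumors lay on the same side of vehicle with no overlap, 1161 above and 1203 below among all tested. AREG had 3.31, 10.7 and 7.95 CPM with lenvatinib, 1.16, 0.894 and 2.26 with H3B-6527 and 14.8, 12.03 and 18.5 with vehicle. UBASH3B, a phosphatase that dampens receptor signalling, had 2.90, 6.86 and 5.41 CPM with lenvatinib, 0.489, 0.244 and 0.670 with H3B-6527 and 13.3, 11.8 and 16.9 with vehicle. The amino acid transporter SLC6A14 had 6.05, 14.1 and 13.1 CPM with lenvatinib, 1.31, 1.44 and 2.56 with H3B-6527 and 25.8, 32.97 and 38.5 with vehicle. In all 3 genes the H3B-6527 tumors were farther from vehicle than the lenvatinib tumors were. CYP4F3, which breaks down leukotriene B4, lay above vehicle, at 19.3, 14.7 and 13.1 CPM with lenvatinib, 236, 136 and 113 with H3B-6527 and 6.76, 7.11 and 3.91 with vehicle (−3.37 ± 0.31 between the agents). NDRG1, described above, was also of this kind. G6PC, which releases glucose from the liver, had 14.5, 7.89 and 9.28 CPM with lenvatinib, 69.3, 19.6 and 18.4 with H3B-6527 and 1.90, 7.82 and 1.05 with vehicle (−1.77 ± 0.67 between the agents, adjusted p = 0.0568). Its difference between the agents passed in 3 of 14 alternatives, among them without H3B-6527 replicate 2 (0.0431).

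**Figure D5:**
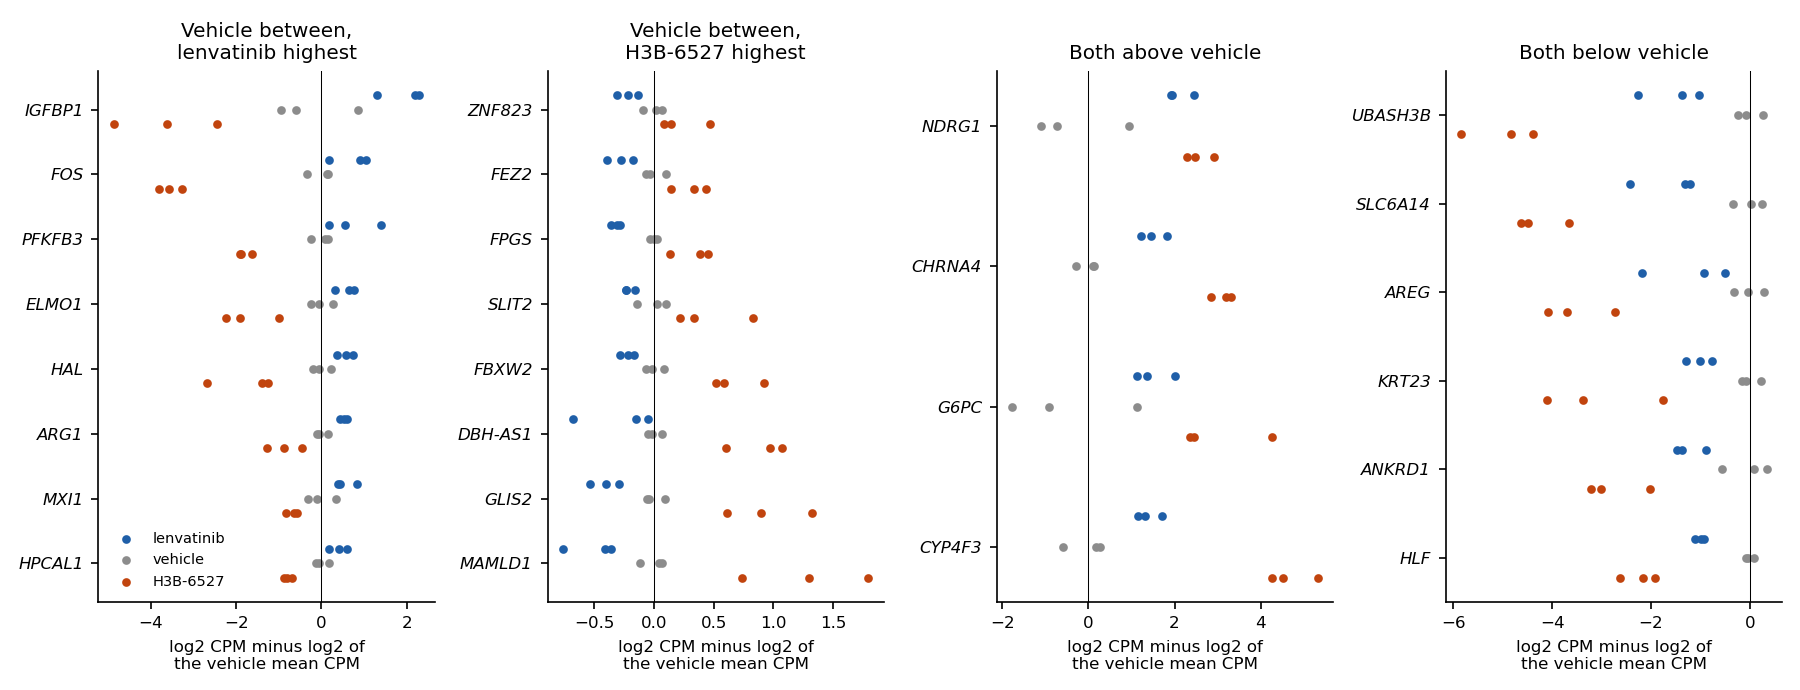
Level of named genes in each lenvatinib, H3B-6527 and vehicle tumor as log2 CPM minus log2 of the vehicle mean CPM, in panels by where the vehicle tumors lie. IGFBP1, FOS and HAL have vehicle between the agents, NDRG1 lies above vehicle with both, and UBASH3B and SLC6A14 lie below vehicle with both, farther with H3B-6527.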

How the data were processed

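RNA of 12 Hep3B xenograft tumors was sequenced, and the 6 single-agent tumors were compared. The authors deposited 1 table of expected counts, the reads per gene as kallisto estimates them, unscaled and with 28.2% of all values not whole (tolerance 0.001). STAR and kallisto and the builds GRCh37 and GRCm38 are named in the submitters' processing notes, but their versions and roles, and whether mouse reads were removed, are not given in the sources used here. Mouse reads could thus be counted in conserved genes. Coordinates and sequences need a human annotation and are not reported.

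Counts were rounded. The low-count filter was filterByExpr with the 4 groups. edgeR 4.0.16 in R 4.3.3 (TMM factors, robust quasi-likelihood F-test, 2-sided) was fitted to all 12 libraries, the contrast was lenvatinib minus H3B-6527, and the Benjamini-Hochberg adjustment ran over all 15836 genes, with a threshold of 0.05. Errors are SE, and intervals are 95%. Ratios of few counts carry exact binomial counting intervals over pooled tumors. A floor of 3 counts is 0.126 CPM in the smallest library. The code was run on counts simulated from the same fit, with the same spread per gene in all groups. That run checks the code only and not the results in these tumors.

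The text takes its genes from a rule: the 15 largest differences each way (adjusted p under 0.05, absolute log2 difference and mean log2 CPM of at least 1, no overlap), 20 genes chosen by name, up to 4 members of each of 35 lists with the smallest p, and genes by the position of the vehicle tumors. Further list members serve as examples and were picked after their values were seen. Members, lists and rules were chosen with earlier results of these data known. The 14 alternatives were other scalings (library totals, upper quartile), DESeq2 1.42.0, voom with quality weights in limma 3.58.1, 2 other filters, 2 smaller fits and leaving out each of the 6 tumors. Tumors of a group came from separate mice. Some genes of the lists are counted but not reported here by name.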

Additional observations from a re-analysis of the deposited data

How the results depend on the processing

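Of the 6513 genes that passed, none passed in the opposite direction under any of the 14 alternatives. The number passing ran from 4389 in a fit of the 6 tumors alone, of which 4369 were shared with the same direction, to 7326 without H3B-6527 replicate 3. Leaving out 1 tumor at a time gave 4854 to 7326 genes in all, 2412 to 3724 higher with lenvatinib and 2442 to 3602 lower. At 2-fold these fits gave 809 to 1246 higher and 610 to 1243 lower, the last range starting without H3B-6527 replicate 1. In the fit of the 6 tumors alone 2170 genes were higher. Of 172 named genes that passed, 168 passed in every alternative that tested them, and all 172 kept their sign. The exceptions were ADORA2A with voom, TK1 in 2 alternatives, HSP90AB1 in 8 and HSPB1 in 7. Many named genes were picked for a large difference or a small p in these same data, and all alternatives reuse the same tumors. Agreement in call or direction is therefore not an independent check. Medians of 2 host marker lists changed sign: the endothelial median of 0.27 became −0.15 in the fit of the 6 tumors alone, and the fibroblast and pericyte median of 0.63 became −0.013 without a low-count filter, where the endothelial median was 0. In the fit of the 6 tumors alone, members higher with lenvatinib were 16 for G2 and mitosis, 4 for S phase, and 3 each for cell cycle inhibitors, ER chaperones, cholesterol synthesis and epithelial-mesenchymal genes. The cause was not tested.

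No paired analysis was possible because the labels give no replicate numbers shared between groups, and the numbers used here follow the order of deposit. With 3 tumors a group and a wide spread under H3B-6527, small differences were hard to detect. Genes near the floor of 3 counts, such as ADORA2A, ABCB11 and CYP7A1, have folds that depend on few reads.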
